A study of Mus musculus with 6 samples.

Results

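The genes described here are 10 named members of 3 families through which a B cell is read by other lymphocytes: MHC class I with its assembly genes (B2m, H2-K1, H2-D1, Tap1, Tap2, Tapbp and Nlrc5), the lipid-presenting molecule CD1d (Cd1d1), and the CLEC2 lectins Clec2d and Clec2i. They were taken by gene symbol from a deposited table of 55421 genes, of which 24646 had a read. Each symbol matched 1 row, and all 10 were among the 13562 genes that were tested, those averaging 10 or more normalized reads. RNA came from 3 SFR KO and 3 wildtype libraries of sorted germinal centre B cells. The SFR KO mice lack a stretch of the genome that runs from within Cd244 to within Slamf6 and takes in 7 genes of SLAM family receptors (Cd244, Ly9, Slamf7, Cd48, Slamf1, Cd84 and Slamf6), and the wildtype mice carry it. All mice were C57BL/6 carrying a green fluorescent protein (GFP) reporter, and both groups were immunised with NP(18)OVA in alum. GFP-positive spleen cells were sorted on day 9. The sort thus takes cells by reporter activity and not by a germinal centre surface marker. The sources used here give no age.

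MHC class I molecules show peptides from inside the cell to CD8 T cells, and their presence also restrains natural killer (NK) cells. Each is a heavy chain, such as the products of H2-K1 and H2-D1, bound to beta-2 microglobulin, the product of B2m. TAP, a pump made from Tap1 and Tap2, carries peptides into the endoplasmic reticulum, where tapasin, the product of Tapbp, helps load them. NLRC5 is a transcriptional activator of MHC class I genes. CD1d pairs with the same light chain and shows lipids to NKT cells. In mice Clec2d encodes Clr-b, a ligand of the inhibitory NK receptor NKR-P1B, and Clec2i encodes Clr-g, a ligand of other NKR-P1 receptors.

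The promoters of B2m, H2-K1, H2-D1 and Clec2i are shown. The first 3 share a spaced pair of letters, described below, that was not found in the windows of Tap1, Tapbp, Clec2d or Clec2i. Whether such letters bear on transcript level was not tested. RefSeq windows on build GRCm38.p6, from 250 bases before to 50 bases after the start of a gene, were found for 7 of the 10 members, namely B2m, H2-K1, H2-D1, Tap1, Tapbp, Clec2d and Clec2i. The first listed window of each gene was read. Searches covered both strands. The letters were TGACG (the core of the X2 box), ATTGG (the Y box), an NF-kB-like site (GGGA, any 4 bases, then CC) and 2 interferon-response-like sites, a shorter one (GAANNGAAA) and a longer one (GAAA, any 2 bases, then GAAA). Every match is printed in capitals, and where matches overlap or touch the capitals run together; the NF-kB-like letters of all 3 class I windows match on both strands at neighbouring positions.

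B2m, chr2:122147437-122147736, plus strand: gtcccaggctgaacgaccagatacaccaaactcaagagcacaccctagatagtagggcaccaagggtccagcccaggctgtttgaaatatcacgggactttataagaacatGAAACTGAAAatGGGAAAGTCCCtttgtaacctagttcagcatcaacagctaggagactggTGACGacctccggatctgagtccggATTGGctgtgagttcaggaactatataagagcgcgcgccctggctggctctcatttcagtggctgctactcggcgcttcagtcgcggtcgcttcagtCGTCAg
H2-K1, chr17:34000298-34000597, minus strand: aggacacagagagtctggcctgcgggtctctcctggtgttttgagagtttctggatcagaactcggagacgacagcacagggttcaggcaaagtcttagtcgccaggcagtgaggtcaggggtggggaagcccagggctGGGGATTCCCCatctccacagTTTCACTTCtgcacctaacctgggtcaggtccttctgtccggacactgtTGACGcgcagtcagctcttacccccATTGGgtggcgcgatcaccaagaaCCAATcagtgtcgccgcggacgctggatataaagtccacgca
H2-D1, chr17:35262844-35263143, plus strand: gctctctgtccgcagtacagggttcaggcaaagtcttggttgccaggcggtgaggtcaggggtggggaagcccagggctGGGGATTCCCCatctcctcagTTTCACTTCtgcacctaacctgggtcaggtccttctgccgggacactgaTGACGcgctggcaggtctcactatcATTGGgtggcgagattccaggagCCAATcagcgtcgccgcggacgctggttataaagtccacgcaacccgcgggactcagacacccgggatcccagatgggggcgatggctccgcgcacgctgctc
Clec2i, chr6:128887337-128887636, plus strand: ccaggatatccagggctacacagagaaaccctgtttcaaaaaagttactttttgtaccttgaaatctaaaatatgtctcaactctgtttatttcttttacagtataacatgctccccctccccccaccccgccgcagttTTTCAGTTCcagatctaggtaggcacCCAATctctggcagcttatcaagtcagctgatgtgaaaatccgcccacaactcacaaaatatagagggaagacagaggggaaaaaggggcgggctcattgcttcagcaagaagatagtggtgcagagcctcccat

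B2m, H2-K1 and H2-D1 each held TGACG followed by ATTGG with exactly 20 bases between them. This spaced pair was present in 26 of 27025 gene windows (0.0962%), and in no other member with a window. The motifs were chosen with the promoter letters in view, so finding the pair in these 3 members is no test. Among the 26 genes was H2-M3, a class I heavy chain that presents formylated peptides. Counted from 0 at the annotated start of the window used, the pair ran from -78 to -49 in B2m, from -41 to -12 in H2-K1 and from -101 to -72 in H2-D1. These starts are annotations and were not checked against reads, so the positions should not be compared between genes. Taken singly the letters were common: TGACG was in 21%, ATTGG in 37.9% and the NF-kB-like site in 20.5% of all windows. The shorter interferon-response-like site stood in 7.56% and the longer in 3.49%. The NF-kB-like letters were found in 3 of the 7 member windows, those of B2m, H2-K1 and H2-D1. The shorter interferon-response-like site was found in 4, those of H2-K1, H2-D1, Clec2d and Clec2i, and the longer in those of B2m and Clec2d. TGACG was in 4, the fourth being Tap1, and ATTGG in all 7. The Clec2i window had neither TGACG nor the NF-kB-like letters. A match describes letters only and is no evidence that a factor binds there. Of the 26 genes with the spaced pair, 21 were tested between the genotypes. limma called 0, while 5 had p under 0.05 before adjustment and 12 lay above 0, with a median log2 difference of 0.03. Over all tested genes limma called 0.465%, 16.1% had p under 0.05 before adjustment and 49.3% lay above 0.

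The libraries held between 28269310 and 33053024 reads assigned to genes. Values are counts that the authors describe as normalized relative to library size, called normalized reads here. Whether libraries came from different animals is not stated, and the p-values cover only variation among these 6 libraries, which may be technical. All 7 deleted genes were lower in SFR KO libraries without overlap, with 0 to 30 reads over the 3 SFR KO libraries and 154 to 16589 over the 3 wildtype libraries. The 9 germinal centre B cell markers, among them Bcl6, S1pr2 and Fas, were read in every library, with summed levels of 333255 to 344230 normalized reads in SFR KO and 333311 to 343087 in wildtype libraries. Markers of NK, NKT and T cells were low but not absent, while the sums of some other lists given below were higher. Summed over 7 NK and NKT cell markers, including Ncr1 and Klrk1, libraries had 96.3 to 144 normalized reads in SFR KO and 92.4 to 185.9 in wildtype. Over 5 T cell markers, including Cd3e and Cd4, the sums were 441.4 to 614.2 in SFR KO and 238.7 to 487.7 in wildtype libraries. Sums of 4 plasma cell markers, mostly the antibody joining chain Jchain, were 31039.7 to 32128.4 in SFR KO and 28098.8 to 28944.7 in wildtype libraries and did not overlap. The markers of that list did not move together. Prdm1, also of that list, had 240.4, 271.5 and 331.5 normalized reads in SFR KO and 262, 168.2 and 206.2 in wildtype libraries. Its groups overlapped (log2 difference 0.42 ± 0.18, limma adjusted p = 0.308). Sdc1, the plasma cell surface protein syndecan, had 29.6, 27.4 and 28.1 normalized reads in SFR KO and 46.5, 35.9 and 47.7 in wildtype libraries, lower without overlap (log2 difference -0.59 ± 0.26, limma adjusted p = 0.302), and Xbp1, a secretory cell factor, had a log2 difference of 0.01 ± 0.05 (0.965). Sums of neutrophil, red cell, macrophage and dendritic cell, and NK and NKT cell markers were all highest in the first library of each genotype. The 3 neutrophil genes S100a8, S100a9 and Retnlg summed to 1040.5, 215.7 and 262.3 in SFR KO 1, 2 and 3, and to 3269.4, 551.8 and 350.4 in wildtype 1, 2 and 3. The 4 red cell globin genes summed to 4031.1, 1492.2 and 2805 in SFR KO and to 7281, 1547.9 and 1349.8 in wildtype libraries. For 5 macrophage and dendritic cell markers the sums were 3510.8, 2126.1 and 2504.4 in SFR KO and 4100.9, 3092.4 and 2563.7 in wildtype libraries. Numbers name libraries and pair none. In bulk RNA, fewer cells of a type and less RNA per cell cannot be told apart.

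Per length of exon, the class I light chain had the highest level of the members and Cd1d1 the lowest. B2m stood at 40317 ± 514.1 normalized reads per kb in SFR KO and 33869 ± 477.6 in wildtype libraries (mean ± SD, n = 3 each, as for the other levels per kb). The heavy chains followed, H2-D1 with 13737 ± 347.8 in SFR KO and 13450.2 ± 926.6 in wildtype, and H2-K1 with 12426 ± 951.2 in SFR KO and 11239 ± 1166 in wildtype libraries. Ranges over the 6 libraries overlapped for these heavy chains, so their order is not set. Tap1, Tap2 and Tapbp lay together, between 1675 and 2337 normalized reads per kb in any library, with overlapping ranges. Clec2d, at 882.9 ± 136.2 in SFR KO and 886.6 ± 36.7 in wildtype, stood above Nlrc5, at 318.8 ± 74.9 in SFR KO and 255.9 ± 31.5 in wildtype. Clec2i came next, at 228.7 ± 23.7 per kb in SFR KO and 143 ± 7.59 in wildtype libraries. The ranges of Nlrc5 and Clec2i over the 6 libraries, 223 to 377 and 135 to 254, overlapped. Cd1d1 had 11.6 ± 1.58 in SFR KO and 9.94 ± 2.51 in wildtype. Exon length here is the union over all annotated isoforms, so levels of genes with unused exons are understated.

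**Figure D1:**
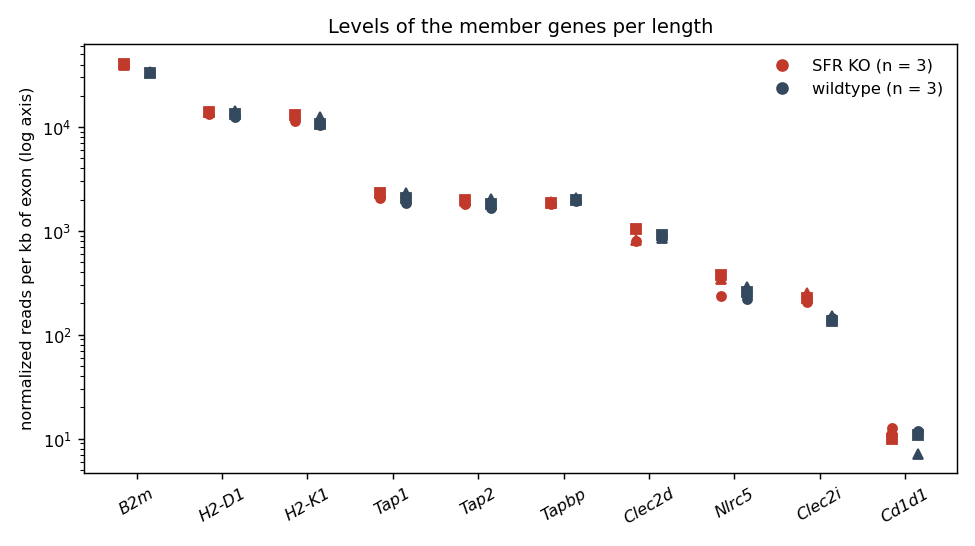
Level of each member in normalized reads per kb of exon (vertical log axis), with 1 point per library, SFR KO left and wildtype right within each gene (circle, square and triangle for libraries 1, 2 and 3). B2m stands at 33326 to 40910, the heavy chains H2-D1 and H2-K1 between 10425 and 14408, and Cd1d1 between 7.11 and 12.7.

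The main comparison asked whether loss of the SLAM family receptors went with a difference in these ligands. Of the 10 members, 1 passed the threshold. Clec2i was 1.59-fold higher in SFR KO libraries, and no member was called lower. The test was limma on log2(normalized reads + 1), two-sided, with Benjamini-Hochberg adjusted p under 0.05 over all tested genes. In that test 0.465% of all genes were called in either direction, 0.155% as higher and 0.31% as lower. Groups did not overlap for 3 members, Clec2i and B2m being higher and Tapbp lower in SFR KO, against 21.7% of all tested genes in either direction. The members' share of separate groups is close to that background. Fitted log2 differences were above 0 for 8 members and below 0 for 2, with a median of 0.14, where 49.3% of all tested genes were above 0 and their median was -0.003.

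**Figure D2:**
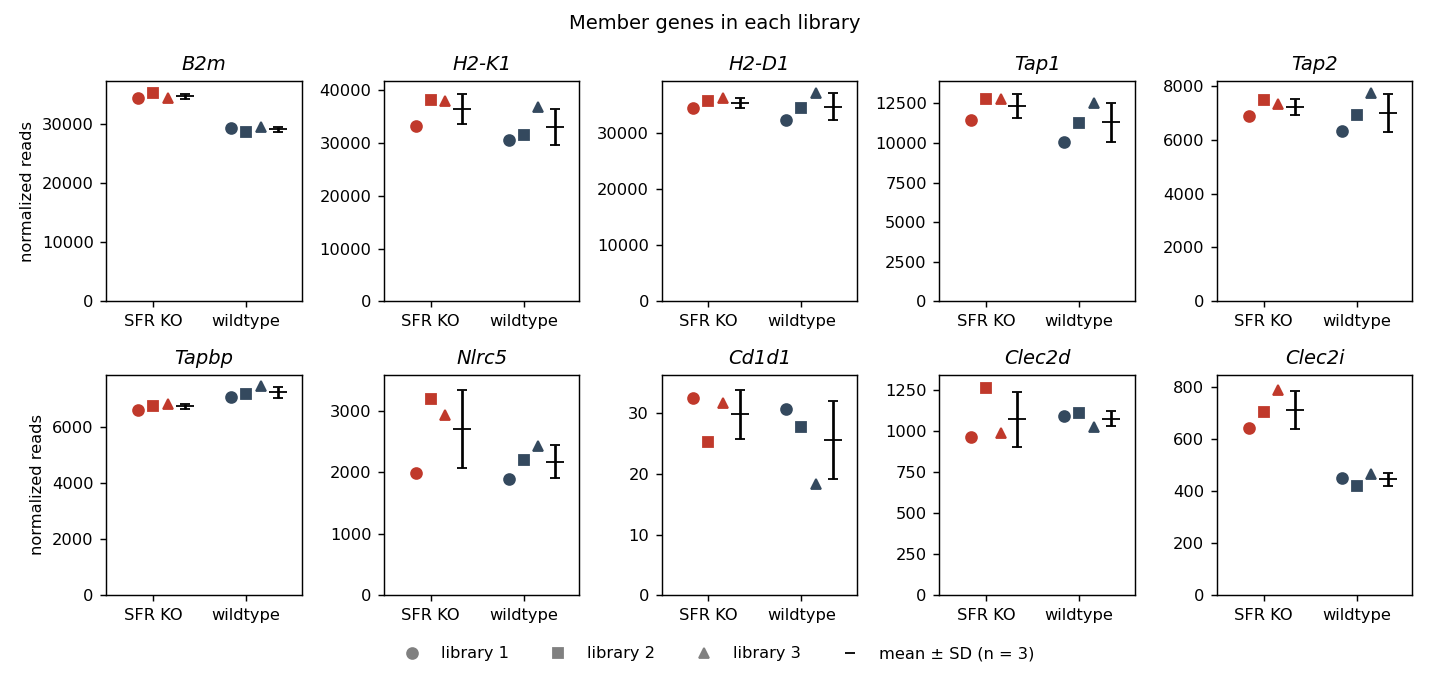
Normalized reads of each member (vertical axes from 0), with SFR KO libraries left and wildtype libraries right; marker shapes name libraries 1, 2 and 3, and bars give mean ± SD (n = 3). The groups separate for Clec2i and B2m, which are higher, and for Tapbp, which is lower in SFR KO libraries, and overlap for the other 7 members.

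Clec2i had 641.5, 704 and 788.6 normalized reads in SFR KO 1, 2 and 3 and 448.7, 419.5 and 466.2 in wildtype 1, 2 and 3. Every SFR KO library thus stood above every wildtype library. The means were 711.3 ± 73.8 in SFR KO and 444.8 ± 23.6 in wildtype libraries (SD, n = 3 each), and the log2 difference was 0.67 ± 0.10 (SE; limma adjusted p = 0.0322). The Clec2i levels rest on 2136 reads over the SFR KO and 1351 over the wildtype libraries. The authors' deposited table gives Clec2i a DESeq2 log2 fold change of 0.68 ± 0.12 with an adjusted p of 8.41e-06. There, 4.8% of the genes with an adjusted p were called, and B2m was the other member among them. The limma call rested on every library but 1. With SFR KO 1 left out it held (adjusted p = 0.00607). It was lost without SFR KO 2 (0.177), SFR KO 3 (0.0841), wildtype 1 (0.124), wildtype 2 (0.113) or wildtype 3 (0.0966), fits with fewer samples in which the log2 difference was 0.60 to 0.71. Clec2i also has the lowest GC content of the members, 39.1% against a median of 49.4% over tested genes. With each library's trend in GC content removed, its log2 difference was 0.57 ± 0.11 and the call was lost (adjusted p = 0.106).

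Clec2d, the other CLEC2 member, had 963.7, 1261.2 and 988.1 normalized reads in SFR KO libraries and 1092.6, 1108.8 and 1024.8 in wildtype libraries. SFR KO 2 was the highest of the 6, and the groups overlapped. Its log2 difference was -0.02 ± 0.10 (limma adjusted p = 0.96), and its sign turned under 5 of 17 alternatives, upper quartile scaling among them. Read within each library, Clec2i had 0.666, 0.558 and 0.798 times the reads of Clec2d in SFR KO and 0.411, 0.378 and 0.455 times in wildtype libraries. That ratio does not depend on library scaling. It was 1.63-fold higher in SFR KO, with an exact two-sided permutation p of 0.1, the smallest that 3 against 3 allows (0.3 after Benjamini-Hochberg adjustment over 3 such values). Other genes of the family were low. Clec2f, a further CLEC2 lectin gene, had 17.7, 19.7 and 22.5 normalized reads in SFR KO and 11.1, 7.2 and 12.2 in wildtype libraries (log2 difference 0.93 ± 0.37, limma adjusted p = 0.264). Clec2g had 40.4, 53.6 and 79.6 in SFR KO and 32.5, 3.1 and 42.7 in wildtype libraries (1.64 ± 0.77, adjusted p = 0.341). Of the 7 further CLEC2 genes, 3 could be tested and none was called. Clec2e, Clec2h and Clec2j were listed at 0.

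Clec2i lies on chromosome 6, from 128887588 to 128898167 on the plus strand (GRCm38), and Clec2d from 129180615 to 129186534 on the same strand. BC035044 lies across Clec2i on the opposite strand, with no shared exon base. It had 2363 ± 189.1 normalized reads in SFR KO and 2382 ± 72.9 in wildtype libraries, a log2 difference of -0.01 ± 0.07 (limma adjusted p = 0.944). Within 1000000 bases on either side of Clec2i, limma called 0 of 31 other tested genes, and 7 had p under 0.05 before adjustment, where 0.465% and 16.1% of all tested genes did. Of all 50-base windows of the longest Clec2i transcript, 4.94% recur in transcripts of other genes, the largest part (2.5%) in Clec2g, so reads shared with paralogs can concern few of its positions. Among 8923 other genes that averaged 200 or more normalized reads, Alcam, an adhesion molecule, had the pattern most like that of Clec2i over the 6 libraries. Likeness was the root mean square difference of centred log2 values, which was 0.08 for Alcam. The splicing kinase gene Clk4 (0.09) and the B cell inhibitory receptor gene Cd72 (0.09) came next. Alcam had 1329.2, 1347.7 and 1512.6 normalized reads in SFR KO and 823.2, 895.5 and 865.4 in wildtype libraries.

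B2m was the member with the second smallest p and missed the threshold by little. It had 34433, 35182 and 34401 normalized reads in SFR KO 1, 2 and 3 and 29289, 28661 and 29433 in wildtype 1, 2 and 3. The groups were well apart, since each varied by far less than the gap between them. Means were 34672 ± 442.2 in SFR KO and 29128 ± 410.8 in wildtype libraries, a ratio of 1.19 (log2 difference 0.25 ± 0.05, limma adjusted p = 0.0522). The authors' deposited table gives 0.25 ± 0.05 with an adjusted p of 6.16e-05. On the recovered reads DESeq2 called B2m (adjusted p = 6.14e-06), with 3.56% of all genes called, and edgeR did not (0.0548), with 0.221% called. It passed in limma with sample weights (0.0105), with a robust prior (0.0266), without SFR KO 1 (0.0177), with a minimum mean of 50 normalized reads (0.0463) and with no minimum (0.0462). It missed without SFR KO 2 (0.225), SFR KO 3 (0.126), wildtype 1 (0.148), wildtype 2 (0.166) or wildtype 3 (0.143). Its GC content, 41.2%, is the second lowest of the members. After removal of the GC trend the log2 difference was 0.19 ± 0.05 (adjusted p = 0.164). No 50-base window of its transcript recurs in another gene.

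**Figure D3:**
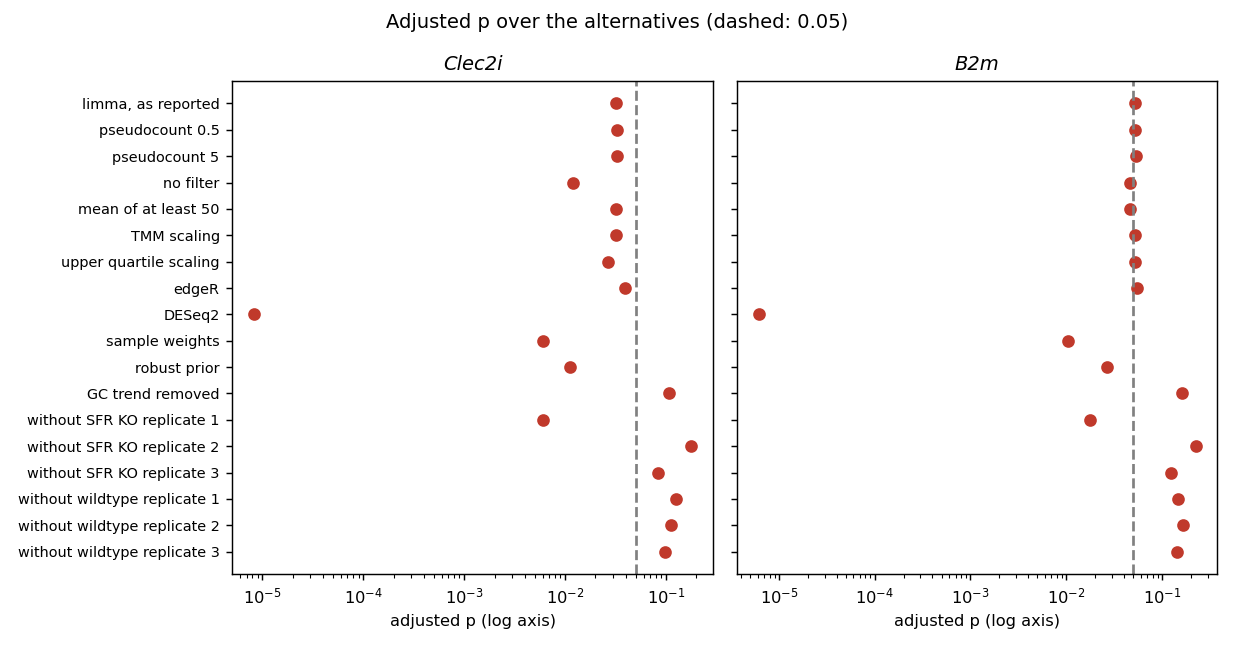
Benjamini-Hochberg adjusted p (horizontal log axis) of Clec2i and B2m in the reported limma fit and in 17 alternatives, 1 point each, with the threshold of 0.05 dashed. Clec2i passes in 11 alternatives and misses in 6; B2m passes in 6 and lies at 0.0522 in the reported fit.

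The heavy chains had values that overlapped between genotypes. H2-K1 had 33280.2, 38184 and 38055 normalized reads in SFR KO and 30628, 31489 and 36943 in wildtype libraries, a log2 difference of 0.15 ± 0.08 (limma adjusted p = 0.428). H2-D1 had 34443, 35643 and 36197 in SFR KO and 32387, 34519.5 and 37158 in wildtype libraries (0.03 ± 0.06, adjusted p = 0.845). For both genes wildtype 3 lay among or above the SFR KO values, and the H2-D1 difference had the opposite sign without wildtype 1 (-0.02). Summed, the 2 heavy chains had 71934 ± 3653 normalized reads in SFR KO and 67708 ± 5735 in wildtype libraries (exact two-sided permutation p = 0.3). B2m had 0.508, 0.477 and 0.463 times that sum in SFR KO and 0.465, 0.434 and 0.397 times in wildtype libraries. The ratio was 1.12-fold higher in SFR KO with overlapping groups (exact two-sided permutation p = 0.2). H2-K1 and H2-D1 lie on chromosome 17, at 33996017 to 34000347 (minus strand) and 35262730 to 35267499 (plus strand). Among 50-base windows, 8.11% of H2-K1 and 14.3% of H2-D1 recur in other genes, so counts of heavy chains are uncertain where reads were split or dropped.

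Of 16 other class I heavy chain genes, 10 could be tested. None was called, 8 had fitted values above 0, and 3 had groups that did not overlap, all higher in SFR KO, against 9.78% of all genes. The median log2 difference was 0.21. H2-T22, a non-classical heavy chain seen by some gamma delta T cells, had 2694.9, 2809.3 and 2956.7 normalized reads in SFR KO and 2270.6, 2315 and 2491.5 in wildtype libraries (log2 difference 0.26 ± 0.06, limma adjusted p = 0.0951). H2-Q7, a gene of the Qa-2 antigen, had 2484.1, 3149.7 and 3270.5 in SFR KO and 1998.4, 1955 and 2476.3 in wildtype libraries (0.47 ± 0.12, adjusted p = 0.116). Their groups were separate, for H2-Q7 by a narrow gap. Of their 50-base windows 58.5% and 28.5% recur in other genes, and values of these paralogs cannot be kept apart with certainty.

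The transporter and tapasin genes sit in the same region of chromosome 17. Tap1 had 11471, 12798 and 12765 normalized reads in SFR KO and 10075, 11271 and 12558 in wildtype libraries, a log2 difference of 0.13 ± 0.08 (limma adjusted p = 0.467). Tap2 had 6884, 7468 and 7318 in SFR KO and 6333, 6908 and 7718 in wildtype libraries (0.05 ± 0.07, adjusted p = 0.779; -0.02 without wildtype 1). For both, wildtype 1 was the lowest library and the groups overlapped. Tapbp ran the other way, with 6618, 6749 and 6822 in SFR KO against 7053, 7187 and 7441 in wildtype libraries. All of its SFR KO values were below all wildtype values, by a log2 difference of -0.10 ± 0.05 (limma adjusted p = 0.307, unadjusted p = 0.0487). Before adjustment 16.1% of all genes had a p under 0.05. Tapbp shares exon bases with Gm19412 on the opposite strand (904 bases) and Zbtb22 (149 bases), and Tap1 shares 212 with Psmb9. No source used here states whether counting used strand, so such reads may have been lost or moved between these genes.

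Genes that supply peptides for class I or help fold and load it gave no call among 10 tested. Of these 6 were above 0, and the median log2 difference was 0.09. The list mixes proteasome genes with folding and loading genes such as Calr, Canx, Pdia3 and Tapbpl, so its counts do not describe peptide supply alone. Psmb9, an immunoproteasome subunit whose gene lies beside Tap1, had 7991, 9229 and 8667 normalized reads in SFR KO and 6374, 6548 and 7770.2 in wildtype libraries (0.33 ± 0.08, limma adjusted p = 0.115). Psme2, a proteasome activator subunit, had 4373, 4625.5 and 4402 in SFR KO and 3935, 3908 and 4316 in wildtype libraries (0.14 ± 0.06, adjusted p = 0.256). Groups did not overlap for either gene. They were the 2 of the list with groups higher without overlap, where 9.78% of all tested genes were. The 1 gene lower without overlap was Pdia3, of the folding and loading genes (-0.08 ± 0.05, limma adjusted p = 0.430), where 11.9% of all tested genes were.

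Nlrc5 varied more among libraries than the class I members it is known to activate. It had 1989.4, 3199 and 2934.3 normalized reads in SFR KO 1, 2 and 3 and 1895.3, 2196.1 and 2428.6 in wildtype 1, 2 and 3. SFR KO 1 lay within the wildtype range, and the other SFR KO libraries lay above all wildtype values. The log2 difference was 0.30 ± 0.16 (limma adjusted p = 0.414). Without SFR KO 1 it was 0.50 ± 0.09 and passed the threshold (adjusted p = 0.0237), in a fit that called 501 genes against 63 with all libraries. SFR KO 1 was the lowest SFR KO library for 8 of the 10 members and wildtype 1 the lowest wildtype library for 6, and these 6 were lowest in both: H2-K1, H2-D1, Tap1, Tap2, Tapbp and Nlrc5. The same libraries had the highest neutrophil, red cell, macrophage and dendritic cell, and NK and NKT cell sums given above. How often these libraries were the lowest of their group over all tested genes was not counted, so the counts have no background. They are not a trait particular to the members. The part of those cells in these values was not tested.

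Of 15 genes that act with NLRC5 or carry interferon signals, none was called, 5 were above 0 and 10 below, with a median log2 difference of -0.08. Jak1, a kinase of interferon receptors, had 15564, 15180.5 and 15451 in SFR KO and 18527, 17200.3 and 16871 in wildtype libraries (log2 difference -0.19 ± 0.05, limma adjusted p = 0.132). All SFR KO values of Jak1 lay below all wildtype values. Irf1, an interferon-induced factor chosen after its values were seen, had 2220, 3656.6 and 3428.8 in SFR KO and 1958.5, 2447.4 and 2993.3 in wildtype libraries, so that its libraries stood in the order that Nlrc5 had within each genotype. Of 10 interferon-stimulated genes, such as Isg15 and Ifit1, limma called 0 and none had p under 0.05 before adjustment. Usp18, which removes ISG15 from proteins, had a log2 difference of 0.56 ± 0.25 (limma adjusted p = 0.322), and Gbp2, a guanylate-binding protein, 0.24 ± 0.12 (0.376).

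**Figure D4:**
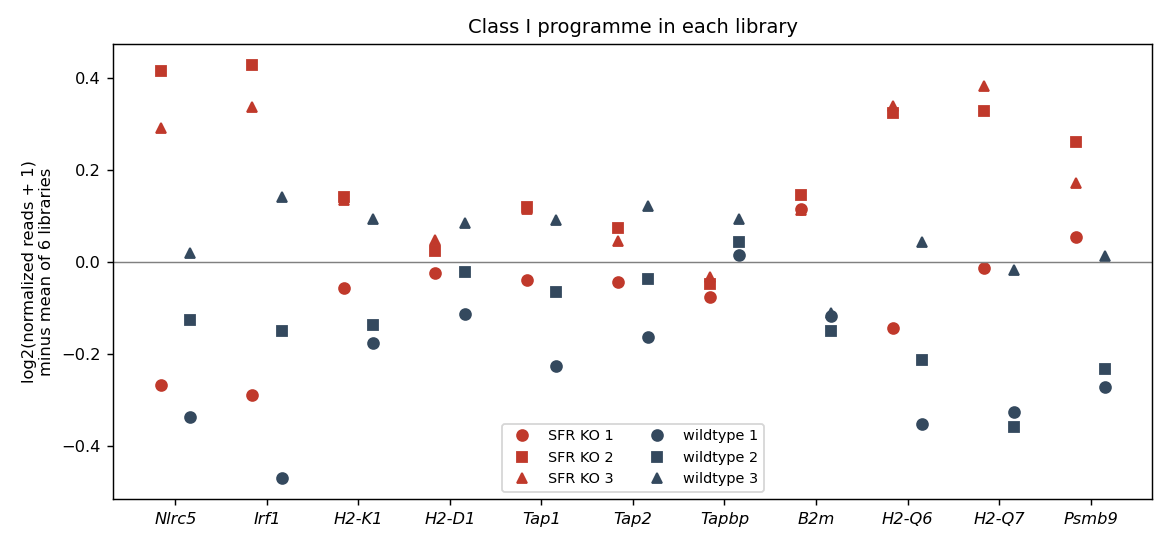
Log2(normalized reads + 1) of class I genes and of Irf1 and Psmb9 (Irf1 and H2-Q6 chosen after their values were seen), minus the mean of the 6 libraries (vertical axis), with SFR KO left and wildtype right within each gene. SFR KO 1 and wildtype 1 (circles) are the lowest of their groups for Nlrc5, H2-K1, H2-D1, Tap1, Tap2 and Tapbp, and the groups separate for B2m, Tapbp, H2-Q7 and Psmb9.

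Cd1d1 was near the floor of what could be compared. It had 32.5, 25.2 and 31.8 normalized reads in SFR KO and 30.7, 27.7 and 18.3 in wildtype libraries, 90 reads in SFR KO and 78 in wildtype libraries in all. Groups overlapped, and at this depth the log2 difference of 0.24 ± 0.31 (limma adjusted p = 0.763) leaves room for changes of either sign. Its neighbour Cd1d2, which shares 25.8% of the 50-base windows of Cd1d1, was listed at 0. Of 10 genes that handle lipids for CD1d, including Cd1d2, 9 were tested and none was called, with a median log2 difference of -0.05. Ap3d1, a subunit of the AP-3 sorting adaptor, had 3705, 4078 and 3876.5 normalized reads in SFR KO and 4115, 4686.5 and 4389.9 in wildtype libraries (-0.18 ± 0.06, limma adjusted p = 0.216). Ap3b1, of the same adaptor, stood at -0.11 ± 0.05 (adjusted p = 0.336), also with separate groups. Of the other AP-3 subunits in the list, which are named after their values were seen, Ap3s1 ran the other way with separate groups, at 536, 552.9 and 565.7 normalized reads in SFR KO and 465.5, 534.4 and 474.3 in wildtype libraries (0.17 ± 0.09, limma adjusted p = 0.396). Ap3m1 stood at -0.12 ± 0.08 with overlapping groups (adjusted p = 0.503).

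Among ligands of NKG2D, an activating receptor of NK cells, Ulbp1 had the highest read counts. It had 4838, 5475 and 6089 normalized reads in SFR KO and 4551, 4149 and 4486 in wildtype libraries, with groups apart (log2 difference 0.31 ± 0.08, limma adjusted p = 0.124). Raet1e had 121.5 ± 18 in SFR KO and 128.3 ± 5 in wildtype libraries (-0.09 ± 0.17, adjusted p = 0.848). Of 9 listed ligand genes 5 were found in the table, 3 were tested and none was called. The receptors for CLEC2 lectins are encoded among the Klrb1 genes of NK cells. The 5 Klrb1 genes listed, not each of which need be such a receptor, together had 54.7 to 79.5 normalized reads in SFR KO and 55.8 to 68.8 in wildtype libraries. Of these Klrb1f stood at 0.34 ± 0.33 (limma adjusted p = 0.668) and Klrb1c at 0.23 ± 0.55 (adjusted p = 0.882).

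Over all 67 further genes of these pathways, of which 50 were tested, limma called 0. Before adjustment 8 higher and 4 lower ones had p under 0.05, where 7.04% and 9.07% of all tested genes did. On the recovered reads edgeR also called 0, while DESeq2 called 6. Among those 6, H2-Q7, H2-T22, Psmb9 and Ulbp1 were higher and Jak1 lower. Of the 5 T cell markers, 3 had p under 0.05 before adjustment, all higher in SFR KO, where 7.04% of all tested genes were. Fitted values were above 0 for 4 of them and below 0 for 1, with a median log2 difference of 0.74. By limma 0 of the 5 were called, and the summed levels overlapped. The plasma cell sums given above were higher in SFR KO libraries, mostly through Jchain. Prdm1 also had a fitted value above 0, with overlapping groups, while Sdc1 was lower. Both cell types express MHC class I, and their part in the levels of B2m, the other class I genes and Clec2i was not tested.

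**Figure D5:**
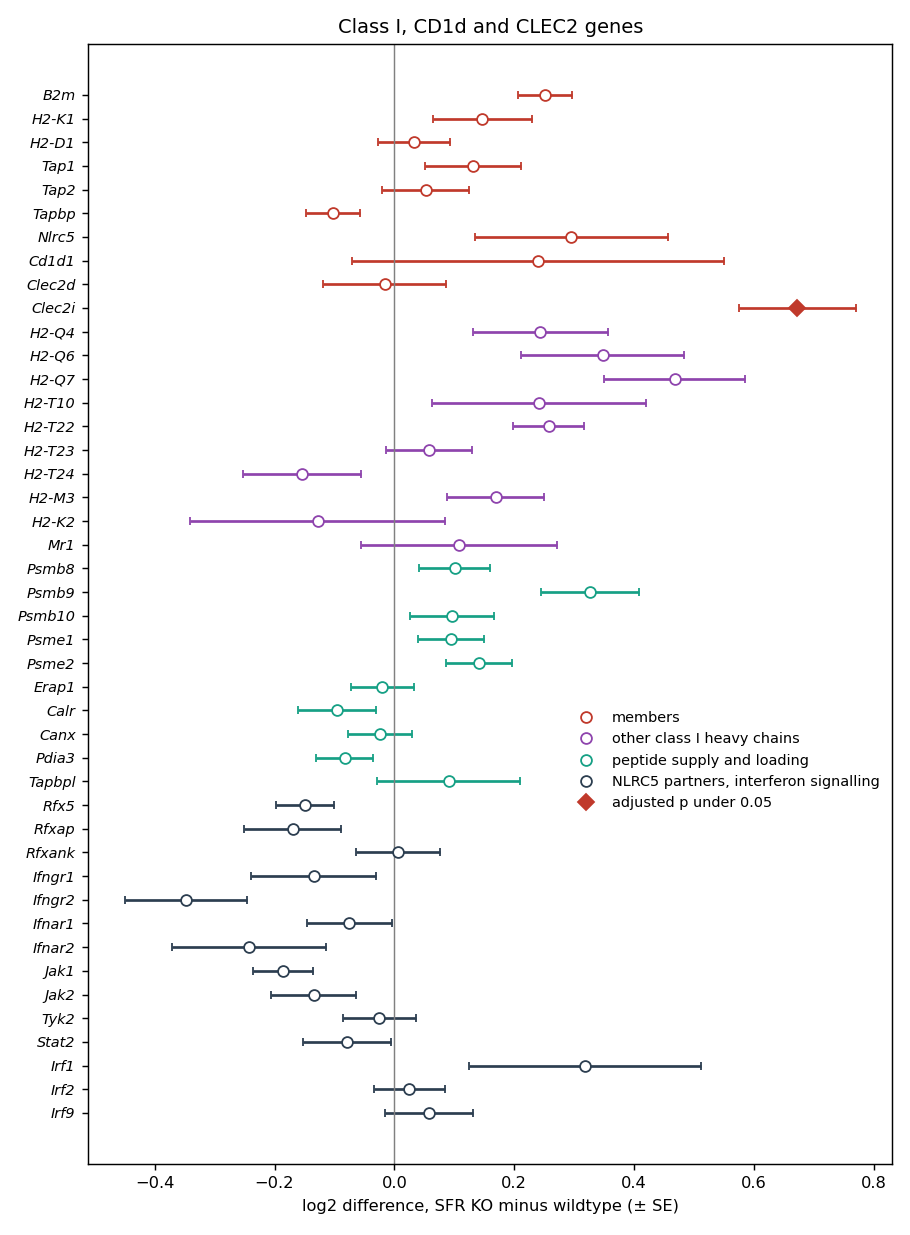
Log2 difference (SFR KO minus wildtype, horizontal axis, ± SE, n = 3 each) of the 10 members and of most tested genes of 3 class I lists, with 1 row per gene. The filled diamond marks Clec2i, at 0.67 ± 0.10, the 1 gene shown with a limma adjusted p under 0.05; Tapbp lies at -0.10 and B2m at 0.25.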

How the data were processed

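RNA-seq counts of 6 libraries, 3 SFR KO and 3 wildtype by the genotype label, were used; replicates were numbered in accession order. STAR 2.5, featureCounts 1.5, DESeq2 1.14.1 and GRCm38 are named in the submitters' processing notes; no source used here names the annotation, strand setting or filters. The authors deposited counts, described as normalized relative to library size, as a signal. Per the file headers, they come with a log2 fold change and its standard error, a test statistic (score) and a p-value with its adjusted p-value. Dividing each library by its smallest value above 0 gave whole reads for 100% of values (tolerance 1e-06). The scaling factors so recovered were not in proportion to total reads. The factor was 1.068 for 33053024 reads in SFR KO 3 and 1.076 for 33041831 reads in wildtype 1.

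limma 3.58.1 (R 4.3.3; lmFit, eBayes with trend) was fitted to log2(normalized reads + 1) of genes with a mean of at least 10, with genotype as factor; fold changes on this scale understate low genes. Steps were tested on simulated counts. Alternatives were pseudocounts 0.5 and 5, a minimum mean of 50 or none, TMM and upper quartile scaling, edgeR 4.0.16 and DESeq2 1.42.0 on recovered reads, sample weights, a robust prior, a GC spline with 4 degrees of freedom, and each library left out. Members, lists and tests were chosen with earlier results of these data known, and motifs with the promoter letters in view. Named are the 10 members, up to 2 genes with the smallest p of each uncalled list, and 3 genes like Clec2i. Positions and exon lengths are from GENCODE M21 (99.7% of genes matched). Values of some genes in the lists are not reported here.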

Additional observations from a re-analysis of the deposited data

How the results depend on the processing

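Under 17 alternatives per member, Clec2i, B2m, H2-K1, Tap1, Tapbp, Nlrc5 and Cd1d1 kept their sign wherever a value was given; DESeq2 gave no adjusted p for Cd1d1, which a minimum mean of 50 also left untested. Clec2d turned to 0.0013 with upper quartile scaling and 0.10 with sample weights. With 1 library left out it ran from -0.139 to 0.0547, being above 0 without SFR KO 1, SFR KO 3 or wildtype 2. H2-D1 ran from -0.016 to 0.0831 and Tap2 from -0.0165 to 0.126, both below 0 without wildtype 1. The number of members called, 1 in the reported fit, was 2 with no minimum level, with a minimum mean of 50, with DESeq2, with sample weights and with a robust prior, and 0 after removal of the GC trend. With 1 library left out it ran from 0 to 3. Further pathway genes called numbered 0 in the reported fit, 6 with DESeq2, 8 with sample weights, and 0 to 8 with 1 library left out. Over all genes 63 were called. The count was 129 with no minimum, 98 with a minimum mean of 50, 30 with edgeR, 483 with DESeq2, 630 with sample weights, 161 with a robust prior, 18 after GC correction and 11 to 501 with 1 library left out. Apart from fewer samples in the last, the cause was not tested. Over all settings the median log2 difference of all genes lay between -0.0104 and 0.0142. No paired analysis was possible because the labels give no replicate number that the groups share. Depth limits Cd1d1, Clec2f and Clec2g, with at most 175 reads per group.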
